A study of Homo sapiens with 6 samples.

Results

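The genes described here are the RAB GTPases, 62 protein-coding genes of the 19834 in the GRCh37 annotation used, chosen by a symbol of RAB followed by digits and at most one letter. The rule takes RAB1A or RAB27A and leaves out regulators with related names such as the RAB3GAP and RAB11FIP genes, and it uses no measured value. RAB proteins are small GTPases that label membrane compartments. In the GTP-bound state each recruits effectors such as tethers, motor adaptors and coat factors that move, dock and fuse vesicles. Guanine nucleotide exchange factors (GEFs) switch them on, GTPase-activating proteins (GAPs) switch them off, and GDP dissociation inhibitors (GDIs) carry the prenylated protein between membranes. In pigment cells RAB38 and RAB32 deliver pigment enzymes to maturing melanosomes, and RAB27A holds mature melanosomes on the actin network through melanophilin and myosin Va.

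The question asked of each gene was whether its mRNA was recovered with CELF1 (also named CUGBP1), an RNA-binding protein known for GU-rich elements (GREs) in 3′ UTRs. CELF1 was immunoprecipitated with an anti-CUGBP1 antibody from untreated, formaldehyde-fixed cells of the established human melanoma lines SK-Mel-103 and UACC-62, and the RNA of the precipitate (IP) was sequenced beside that of the lysate (input). The IP samples were 1 of SK-Mel-103 (replicate 1) and 2 of UACC-62 (replicates 1 and 3), each with its own input. Values in sets of 3 below follow this order. The series describes the UACC-62 samples as biological replicates, SK-Mel-103 had none, and the mouse IgG precipitation named in the methods was not analysed here.

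The 3 lists of 20-bp bins held 816781, 780750 and 862731 bins that had passed the authors' peak caller, with 10958459, 11333805 and 14436573 IP reads and 8453517, 10161917 and 8900292 input reads. Input is known only in bins where the IP passed, so each IP over input value is conditional on that. Labels of the lines were set against melanocyte markers. SOX10 had 864, 2115 and 1080 input reads in the listed bins, while S100B and TYR, the tyrosinase gene, had 0 in SK-Mel-103 and 1157 to 4677 in UACC-62, MITF had 18 against 6034 and 5000, and neither line had a listed bin in PMEL or TYRP1. Of the 8 melanocyte markers, 3 had bins in all 3 lists. Keratinocyte markers (KRT5, KRT14, EPCAM), CD3E, DCN and COL1A1 had 0 input reads in every list, PTPRC at most 3, and the fibroblast gene LUM 10, 239 and 137.

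A peak here is a listed bin with more than 30 IP reads, and a common peak is one and the same bin with a peak in all 3 IP samples. A common peak counts IP reads and does not require more IP than input. Before the values, the sequences that carry them are shown for the 6 RAB mRNAs with the highest IP over input among those with a common peak. The first sequence of each pair is the 20-nt bin with the highest common IP signal, with any UGU in capitals. The second is 30 nt of the same 3′ UTR around its best GRE, with the 11 nt that lie within 2 mismatches of either consensus GRE in capitals. The consensus GREs are 3 UGU joined by single U letters, and 5 UG in a row closed by U, both 11 nt and searched on the transcript strand only. All are written 5′ to 3′ on the transcript strand, GRCh37.

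RAB1A bin (chr2:65315201-65315220, minus strand): ugcauaaaguuuagugagau
RAB1A GRE (chr2:65314908-65314937, minus strand): acacagccaUUUGUGUGUGCacaaugcaaa
RAB14 bin (chr9:123943081-123943100, minus strand): cuucucucucgugcuuaauu
RAB14 GRE (chr9:123941796-123941825, minus strand): ugaccugcuGGUGUGUGUGUauauuuacaa
RAB10 bin (chr2:26358001-26358020, plus strand): uuaacuauccaagccaccua
RAB10 GRE (chr2:26357977-26358006, plus strand): aaacagauaUUUUUGUUUCUcaucuuaacu
RAB18 bin (chr10:27828701-27828720, plus strand): uagauuuauauUGUaaccuu
RAB18 GRE (chr10:27830689-27830718, plus strand): uuaauuucuUGUUUGUGUGUgcuguggcug
RAB23 bin (chr6:57054001-57054020, minus strand): gucccacauacagaaucauu
RAB23 GRE (chr6:57054608-57054637, minus strand): uuuacauauUGUGUAUAUGUuuuuauuuuc
RAB2B bin (chr14:21927661-21927680, minus strand): auaaauuauucccccuauca
RAB2B GRE (chr14:21927739-21927768, minus strand): guuugcaguUGUUUUUGUGUggaaucuugu

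The highest bins of RAB1A held 565, 1161 and 1146 IP reads over 70, 230 and 166 input reads, and those of RAB14 held 362, 247 and 479 over 55, 71 and 81. None of the 6 bins held a whole GRE, and only the RAB18 bin held UGU. The GRE centre lay 19 nt from the bin centre in RAB10, 83 nt in RAB2B, 287 nt in RAB1A, 612 nt in RAB23, 1279 nt in RAB14 and 1992 nt in RAB18. For the melanosome gene RAB27A, which had no common peak, a GRE with the same number of mismatches as those of RAB1A and RAB23 is shown for comparison.

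RAB27A GRE (chr15:55495486-55495515, minus strand): ucuauauggUGUAUUUGUGUuagaauaaca

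A common peak was found in 11 of the 62 RAB genes (17.7%), against 8.69% of all protein-coding genes. They were RAB1A, RAB2A, RAB2B and RAB18 of ER and Golgi traffic, RAB5C of early endosomes, RAB11A and RAB14 of recycling endosomes, RAB7A and RAB12 of the late endosomal and retrieval routes, RAB10 of the secretory and plasma membrane route, and RAB23, a negative regulator of Hedgehog signalling linked to cilia. Both RAB genes of lysosome-related organelles (RAB32 and RAB38) and the 3 RAB40 genes, whose products carry a SOCS box, had none. Single samples gave 15 RAB genes with a peak in SK-Mel-103 (24.2%, against 15% of all genes), 13 in UACC-62 replicate 1 (21%, against 12.5%) and 20 in replicate 3 (32.3%, against 17%). Altogether the RAB genes had 229 common peaks, and 179 of these lay in RAB14, RAB10 and RAB1A.

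The share was also taken in sets of genes chosen by their listed bins or input reads. Input reads count only in bins that the IP passed, so these sets are not matched for RNA level. Of the RAB genes, 41 (66.1%) had a listed bin in all 3 lists, against 50.6% of all genes, and among those 11 of 41 RAB genes (26.8%) had a common peak, against 17.2%. Among genes with 500 or more input reads in all 3 lists, the common peak was found in 9 of 15 RAB genes (60%) and in 56.8% of all genes, so that above this input the RAB share was near the background. Across the 32 RAB genes with enough reads for a ratio (50 or more IP and input reads together in every list), input reads and IP reads had Spearman coefficients of 0.87, 0.85 and 0.80. Input reads and log2 IP over input had coefficients of 0.07, 0.04 and 0.08. Both are descriptions over genes that share libraries and depth. IP and input reads were summed over the same listed bins, so a gene with more such bins tends to have more of both.

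**Figure D1:**
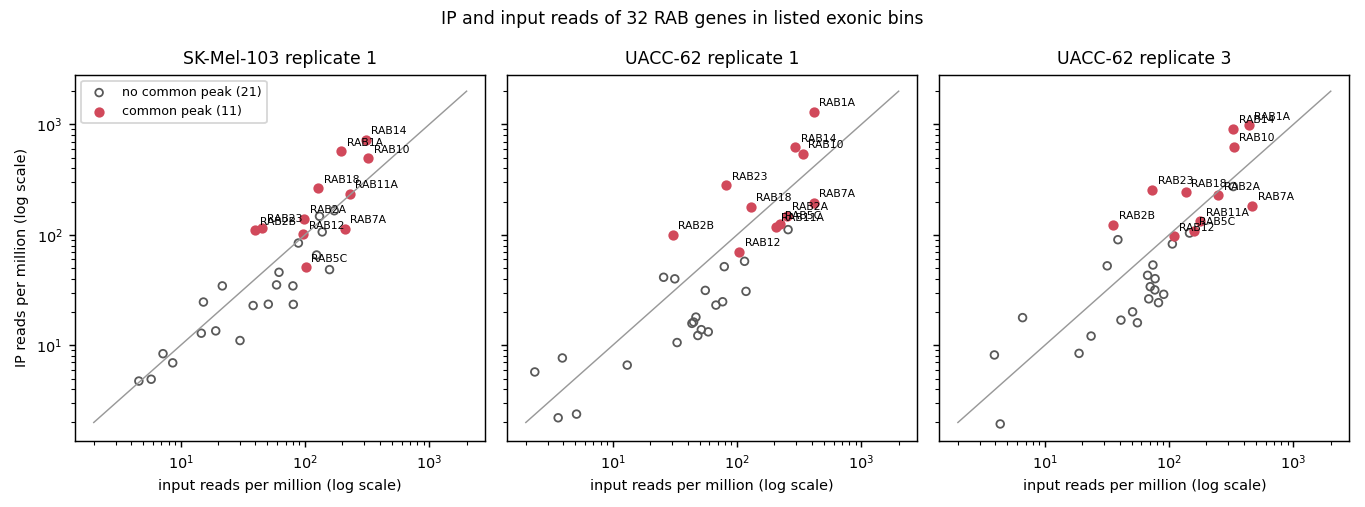
IP reads in RPM, scaled to the total of the list (vertical, log scale) against input RPM (horizontal, log scale) in listed exonic bins for the 32 RAB genes with enough reads, one panel for each sample, with the line of equal values. Filled points are the 11 genes with a common peak, and RAB1A, RAB14 and RAB10 lie above the line in all 3 panels while RAB7A and RAB5C lie below it.

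The measure used next is log2 IP over input, the IP reads of a gene in listed exonic bins divided by the IP reads of the whole list, over the same for input, with 1 read added to each. It was above 0 in all 3 samples in 10 of 32 RAB genes (31.2%), against 25.5% of the 7472 genes with enough reads, and below 0 in all 3 in 18 (56.2%), against 54.9%. The medians of the 32 were -0.13, -0.82 and -0.48, and those of all 7472 genes were -0.28, -0.71 and -0.49. Against the median gene of each sample, 11 RAB genes (34.4%) were above it in all 3 samples and 12 (37.5%) below, against 40.1% and 40% of all genes. The RAB genes as a list thus lay near other genes on this scale. Members differed widely within the list, and the order was alike in the samples, with Spearman coefficients of 0.93 between the UACC-62 replicates and 0.87 and 0.88 between SK-Mel-103 and each of them. One sample against 2 allows no test between the lines, and an exact sign test over 3 IP and input pairs cannot go below p = 0.25, so values are given per sample, with mean ± SD (n = 2) for UACC-62.

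Among the RAB genes with a common peak, 6 of 11 (54.5%) were above 0 in all 3 samples, against 41.4% of all genes with a common peak, and 2 (18.2%) were below 0 in all 3, against 45.5%. Their medians of log2 IP over input were 0.61, 0.49 and 0.83, beside 0.03, -0.39 and -0.003 over the 1724 genes with a common peak.

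Of the genes of ER and Golgi traffic, 4 of 15 had a common peak. RAB1A, which acts in transport from the ER to the Golgi and has been found on melanosomes (chr2:65297830-65357465, minus strand), had 6288, 14715 and 14176 IP reads and 1657, 4227 and 3904 input reads. The log2 IP over input of RAB1A was 1.55, 1.64 and 1.16, with 1.40 ± 0.34 in UACC-62, and the SK-Mel-103 value lay between the replicates. It had 44 common peaks, and 40.2% of its 3′ UTR lay in common peaks with one unbroken stretch of 420 bp. Its close paralog RAB1B, which acts at the same step, had 720, 262 and 621 IP reads and 1050, 688 and 598 input reads. The RAB1B values of log2 IP over input were -0.92, -1.55 and -0.64, all below those of RAB1A, with 2 peaks in SK-Mel-103 and none in UACC-62. In RAB1B 24 of 67 bins, and in RAB1A 8 of 111, had central bases found more than once in the genome, and reads of such bins may be split between copies.

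RAB2B (chr14:21927179-21945119, minus strand) and RAB2A, a pair of Golgi RABs, both had a common peak at different ratios. RAB2B had 1209, 1141 and 1780 IP reads over 335, 310 and 317 input reads, the lowest input among the RAB genes with a common peak. This gave a log2 IP over input of 1.47, 1.72 and 1.79 (UACC-62 1.75 ± 0.05), and its lowest value of 3 samples was the highest of the 11 genes with a common peak. RAB2A, on chromosome 8, had 1534, 1691 and 3281 IP reads over 838, 2564 and 2222 input reads. The RAB2A ratios on the log2 scale were 0.50, -0.76 and -0.14 (UACC-62 -0.45 ± 0.44), so that SK-Mel-103 lay above both replicates, by more than their SD.

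RAB18 (chr10:27793103-27832136, plus strand), a RAB of ER and lipid droplets, had 2903, 2043 and 3500 IP reads over 1084, 1306 and 1212 input reads. RAB18 ratios were 1.05, 0.49 and 0.83 (UACC-62 0.66 ± 0.24), with 16 common peaks. RAB30, a Golgi RAB, had no peak in any sample at ratios of 0.69, 1.24 and 1.41 on the log2 scale. RAB6A, which acts in retrograde Golgi transport, had ratios of -0.75, -1.46 and -1.28, and 29 of its 83 bins were not unique in the genome.

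Of the endosomal genes, RAB14 and RAB11A of recycling endosomes stood on opposite sides of 0 in UACC-62, and both were above it in SK-Mel-103. RAB14 (chr9:123940411-123985292, minus strand), which works between the Golgi and endosomes, had 7999, 7077 and 13256 IP reads over 2610, 2999 and 2920 input reads. Its log2 IP over input was 1.24, 1.08 and 1.48 (UACC-62 1.28 ± 0.29), and its 72 common peaks were the most of any RAB gene. RAB11A (chr15:66018392-66184327, plus strand), the central recycling RAB, had 2588, 1343 and 1913 IP reads over 1945, 2088 and 1588 input reads. Its log2 IP over input was 0.037, -0.79 and -0.43 (UACC-62 -0.61 ± 0.26), below RAB14 in each sample, and it had 5 common peaks. The paralog RAB11B had few reads (92, 87 and 118 in the IP, 61, 40 and 35 in the input) with ratios of 0.21, 0.94 and 1.03, and RAB25, the epithelial member, had no listed bin.

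RAB5 proteins govern fusion of early endosomes, and of the 3 paralogs RAB5C alone had a common peak. RAB5C (chr17:40276996-40307062, minus strand) had 560, 1420 and 1576 IP reads over 860, 2247 and 1408 input reads, for log2 ratios of -0.99, -0.82 and -0.54 (UACC-62 -0.68 ± 0.20). It lay below 0 in every sample, and its 1 common peak is in a bin of high input (87, 190 and 128 input reads beside 62, 128 and 138 IP reads). RAB5A had 531, 139 and 351 IP reads over 1334, 492 and 732 input reads, with ratios of -1.70, -1.97 and -1.76 and no peak. RAB5B had 502, 584 and 1194 IP reads over 523, 803 and 946 input reads, with ratios of -0.43, -0.62 and -0.36 and no peak. In RAB5C 31 of 71 bins are shared with exons of another gene, and the common peak is not one of them.

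RAB7A (chr3:128412512-128544785, plus strand), the late endosome and lysosome RAB that is also found on melanosomes, had 1248, 2213 and 2650 IP reads over 1774, 4211 and 4149 input reads. Its log2 IP over input was -0.88, -1.09 and -1.34 (UACC-62 -1.21 ± 0.18), with the lowest single value of the 11 genes, and it had 8 common peaks. RAB12 (chr18:8609435-8639381, plus strand), which directs recycling cargo to lysosomes, had 1115, 795 and 1409 IP reads over 818, 1058 and 967 input reads and 3 common peaks. The RAB12 ratios were 0.072, -0.57 and -0.16 (UACC-62 -0.36 ± 0.29). A common peak therefore did not mean a ratio above 0: RAB5C and RAB7A were below it in all 3 samples, and RAB2A, RAB11A and RAB12 were above it in SK-Mel-103 only.

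RAB10 (chr2:26256953-26360323, plus strand), which moves vesicles to the plasma membrane, had 5397, 6151 and 9037 IP reads over 2726, 3432 and 2960 input reads. Its log2 IP over input was 0.61, 0.68 and 0.91 (UACC-62 0.80 ± 0.16), with 63 common peaks. Of these, 62 lay in the 3′ UTR and covered 50.9% of it, the largest share among the RAB genes. Its relatives RAB8A and RAB13, which act at the same membrane, had no peak, with ratios of -1.78, -1.63 and -1.28 for RAB8A and -1.44, -2.14 and -1.79 for RAB13. In RAB13 21 of 32 bins are shared with exons of another gene and 15 are not unique in the genome. RAB23 (chr6:57051790-57087105, minus strand) had 1267, 3193 and 3687 IP reads over 382, 831 and 653 input reads. Its ratios were 1.35, 1.78 and 1.80 (UACC-62 1.79 ± 0.01), and it had 3, 31 and 41 peaks, so that its 3 common peaks were set by SK-Mel-103.

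**Figure D2:**
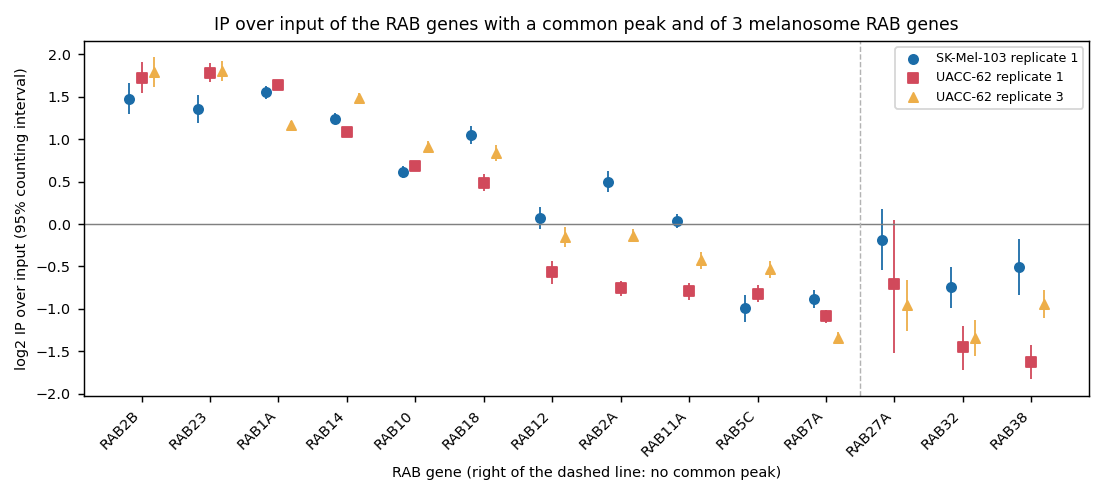
Log2 IP over input (vertical) of the 11 RAB genes with a common peak and, right of the dashed line, of RAB27A, RAB32 and RAB38, for each of the 3 samples. Points are the values per sample and bars the 95% exact binomial (Clopper-Pearson) interval, which covers counting error only. RAB2B, RAB23, RAB1A, RAB14, RAB10 and RAB18 lie above 0 in all 3 samples, and the 3 melanosome genes lie below 0 in all 3.

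Counting intervals were narrow for the abundant mRNAs, for example from 1.18 to 1.31 for RAB14 in SK-Mel-103, where the UACC-62 replicates were 1.08 and 1.48. The RAB14 replicates thus differed by more than counting error. PCR duplicates cannot be told from separate molecules in these counts, and the intervals leave them out.

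The melanosome RAB genes had few IP reads, and none of RAB27A, RAB38, RAB32 and RAB17 had a common peak. RAB27A had 141, 25 and 175 IP reads over 124, 37 and 210 input reads, with log2 IP over input of -0.19, -0.70 and -0.96 (95% counting intervals of -0.55 to 0.17, -1.52 to 0.05 and -1.26 to -0.66). It had no peak in any sample, and its intervals include 0 in the first 2 samples, so that a ratio above or below 0 could not be told apart there. RAB38 had 148, 281 and 579 IP reads over 162, 779 and 687 input reads, with ratios of -0.50, -1.63 and -0.94 and a single peak, in UACC-62 replicate 3. RAB32, its paralog, had 251, 179 and 290 IP reads over 324, 441 and 453 input reads, with ratios of -0.74, -1.45 and -1.34 and likewise 1 peak, in UACC-62 replicate 3. RAB17, implicated in melanosome transfer to keratinocytes, had 0, 19 and 14 IP reads, too few for a ratio, and no peak. A common peak needs more than 30 reads in a single bin of each list. RAB27A had 25 IP reads in UACC-62 replicate 1 and RAB17 at most 19 in any sample, so neither could have a common peak. In SK-Mel-103 and UACC-62 replicate 3, RAB27A had enough reads for a peak, but at most 10 and 11 in a bin. Absence of CELF1 binding to these mRNAs was thus not shown.

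RAB27B, the paralog of RAB27A in secretory cells, had 190 IP reads over 99 input reads in SK-Mel-103, and 0 and 5 IP reads in UACC-62. It was one of 3 RAB genes (4.84%) with a peak in SK-Mel-103 only, beside RAB1B and RAB22A, against 2.98% of all genes. RAB22A, of early endosomes, had 1812, 356 and 770 IP reads over 1457, 565 and 660 input reads, and its log2 IP over input was -0.06, -0.82 and -0.48. RAB31, its paralog, had 8, 0 and 1 peaks at ratios of 0.17, 0.68 and 1.22, over 1108, 261 and 345 input reads. Input of all 4 genes was also higher in SK-Mel-103, and its part in the peak calls was not tested.

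Peaks in both UACC-62 samples and none in SK-Mel-103 were found in 2 RAB genes (3.23%), RAB28 and RAB8B, against 2.43% of all genes. RAB28, a ciliary RAB, had 378, 453 and 757 IP reads over 183, 321 and 283 input reads, with ratios of 0.67, 0.34 and 0.72 in which SK-Mel-103 lay between the replicates. RAB8B, the exocytic paralog of RAB8A, had 924, 1264 and 3952 IP reads over 749, 2619 and 2928 input reads, with ratios of -0.07, -1.21 and -0.27 and 0, 1 and 40 peaks. The UACC-62 replicates of RAB8B were far apart. With UACC-62 replicate 1 left out, 8 RAB genes (12.9%, against 5.16% of all genes) had peaks in UACC-62 only, namely RAB21, RAB28, RAB32, RAB34, RAB38, RAB4A, RAB8B and RAB9A. With replicate 3 left out there were 2 (3.23%, against 2.85%).

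The other RAB genes were spread below these. Of the 62, 52 had a listed bin in at least 1 list, and RAB19, RAB25, RAB26, RAB33A, RAB37, RAB40A, RAB40C, RAB41, RAB42 and RAB44 had none in any. A peak in at least 1 sample was found in 23 (37.1%), against 20.6% of all genes. Beside the genes above, these were RAB21 with 4 peaks and RAB34, RAB4A and RAB9A with 1 each, all in UACC-62 replicate 3, the sample with the most IP reads. RAB34, a RAB of cilia and lysosome positioning, had ratios of -1.21, -1.94 and -1.64, and RAB9A, of retrieval from late endosomes to the Golgi, had 54, 157 and 380 IP reads over 49, 525 and 611 input reads. RAB29 and RAB35 completed the 18 RAB genes below 0 in all 3 samples. Too few reads for a ratio were found in 30 genes, among them all 4 RAB3 genes of regulated secretion and RAB6B, the neuronal relative of RAB6A. Bins shared with exons of other genes made up 58 of 60 in RAB43 and all 11 in RAB4B, whose reads cannot be given to one gene.

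Input in listed bins was compared between the lines. Of 39 genes with bins in all 3 lists and 50 or more input reads in them, 10 had at least 2-fold more input RPM (reads scaled to the total of the list) in both UACC-62 replicates than in SK-Mel-103 (25.6%, against 18.9% of all such genes). At most 0.5 of the SK-Mel-103 value in both was found in 6 (15.4%, against 19.8%), and 12 (30.8%, against 21.3%) were within 1.5-fold in both. RAB38 was 4.0-fold higher in both replicates of UACC-62, the line with TYR and MITF reads, whereas RAB27A was at 0.25 and 1.61 of the SK-Mel-103 level, on both sides of 1. RAB4A, a fast recycling RAB, was 59.3-fold and 79.6-fold higher, from 6 input reads in SK-Mel-103. RAB1A and RAB7A were 2.12-fold and 2.24-fold, and 1.97-fold and 2.22-fold, higher in UACC-62. RAB31, by contrast, was at 0.20 and 0.30 of the SK-Mel-103 level, and RAB14, RAB10 and RAB18 lay between 0.96 and 1.06. These are levels of RNA in bins that the IP passed, not whole transcript levels, and with 1 SK-Mel-103 sample the line and the library cannot be told apart.

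**Figure D3:**
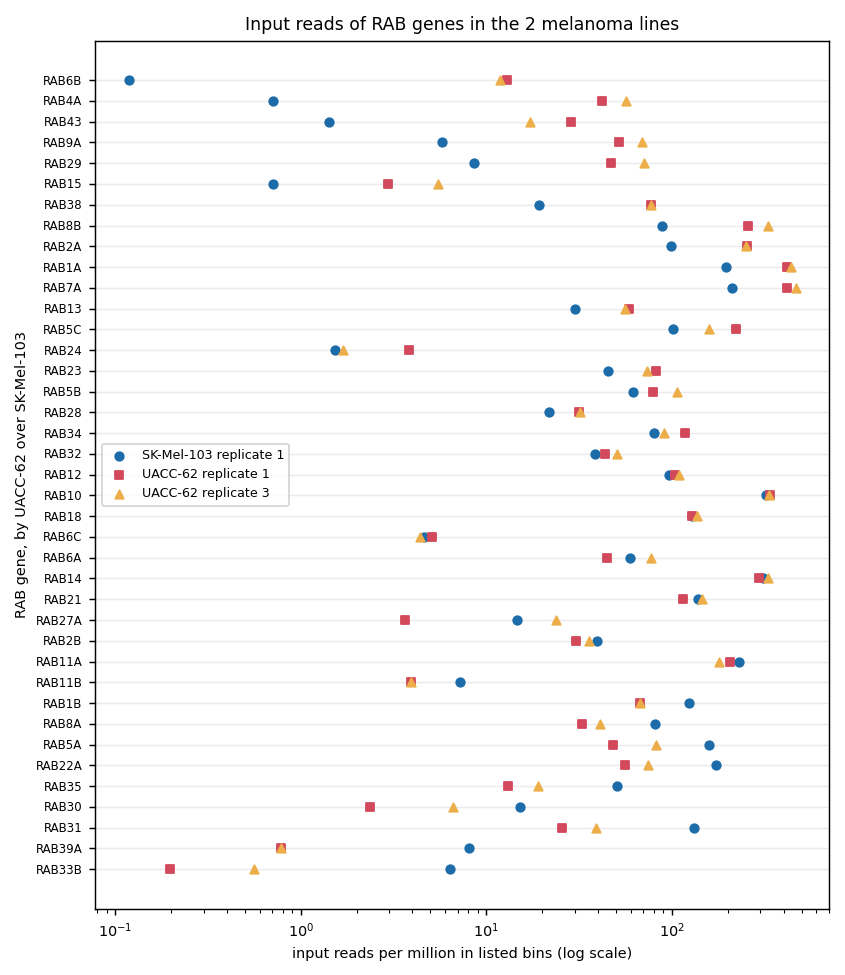
Input RPM in listed bins (horizontal, log scale) for 39 RAB genes, ordered by UACC-62 over SK-Mel-103, with one point for each sample. RAB6B and RAB4A at the top were higher in both UACC-62 replicates, RAB10, RAB14 and RAB18 near the middle had nearly the same level in all 3 samples, and RAB31, RAB39A and RAB33B at the bottom were higher in SK-Mel-103.

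Per length, the input level in RPKM (RPM in listed bins per kb of the joined exons of all coding transcripts) was highest for RAB10 in SK-Mel-103, at 90.6, and for RAB1A in UACC-62, at 170 and 179. RAB10 had 94.8 and 93.4 in UACC-62, and RAB1A 80.1 in SK-Mel-103. RAB7A, with 37.8, 74.7 and 84.0, and RAB14, with 65.8, 62.9 and 69.9, were within 1.5-fold of each other in UACC-62. The RAB7A length of 5549 nt includes 3581 nt of 3′ UTR, where the reference transcript has 1379 nt, so its RPKM would be higher on the reference length. Without length, input RPM in UACC-62 was 414 and 466 for RAB7A and 295 and 328 for RAB14. Their log2 IP over input there was -1.09 and -1.34 for RAB7A and 1.08 and 1.48 for RAB14. Levels within 1.5-fold on the joined length thus went with ratios on opposite sides of 0.

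Along the mRNA, 217 of the 229 common peaks of RAB genes (94.8%, Wilson 95% interval 91.1 to 97.0) lay in 3′ UTRs, and 86.1% (85.7 to 86.5) of the 28555 common peaks of other genes. The remaining 12 lay in coding exons, 11 in RAB1A and 1 in RAB10, and none in a 5′ UTR. All 11 RAB genes had a common peak in the 3′ UTR (17.7%), against 8.27% of all genes. Bins of a gene share its transcripts and its depth, so these intervals count bins and not independent sites. RAB1A held all coding peaks but 1, and without it 184 of 185 (99.5%) lay in the 3′ UTR. The input of the 3 genes with most common peaks also lay mostly there. In SK-Mel-103 the 3′ UTR held 2455 of 2610 input reads of RAB14, 2460 of 2726 of RAB10 and 1285 of 1657 of RAB1A. The same share was not taken for the input of other genes.

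Within the 3′ UTR of the reference transcript, 111 of the 217 common peaks (51.2%) lay in the part next to the stop codon when the UTR was cut into 3 equal parts, 73 (33.6%) in the middle part and 33 (15.2%) in the part next to the 3′ end. RAB10 had peaks along the whole UTR, with 21, 14 and 27 in the 3 parts, from 23 nt to 2363 nt of its 2436 nt. In RAB14 the peaks ran from 87 nt to 2087 nt after the stop codon, and the last 1179 nt of the UTR held none. The RAB14 input reads in listed bins were divided as 50.6%, 49.2% and 0.1% over the 3 parts in SK-Mel-103. Input is known only where the IP passed, so whether the input RNA ends at the same place could not be seen. RAB14 IP reads there were divided as 53.1%, 46.5% and 0.3%.

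RAB1A peaks were crowded behind the stop codon, with 25 of 33 in the first part. The first part of RAB1A held 77.3%, 77.1% and 75.0% of its IP reads and 67.2%, 72.1% and 72.0% of its input reads in the 3 samples. In RAB18, 13 of 16 common peaks lay in the first part, but IP reads were spread further out than input reads. The middle part of the RAB18 UTR held 28.9%, 32.3% and 25% of the IP reads and 11.3%, 11.4% and 13.3% of the input reads, and the IP shares lay above the input shares in every sample. In RAB7A the middle part held 36.7%, 39.7% and 40.9% of the IP reads and 25.8%, 27.1% and 31.7% of the input reads, again higher in the IP in all 3.

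**Figure D4:**
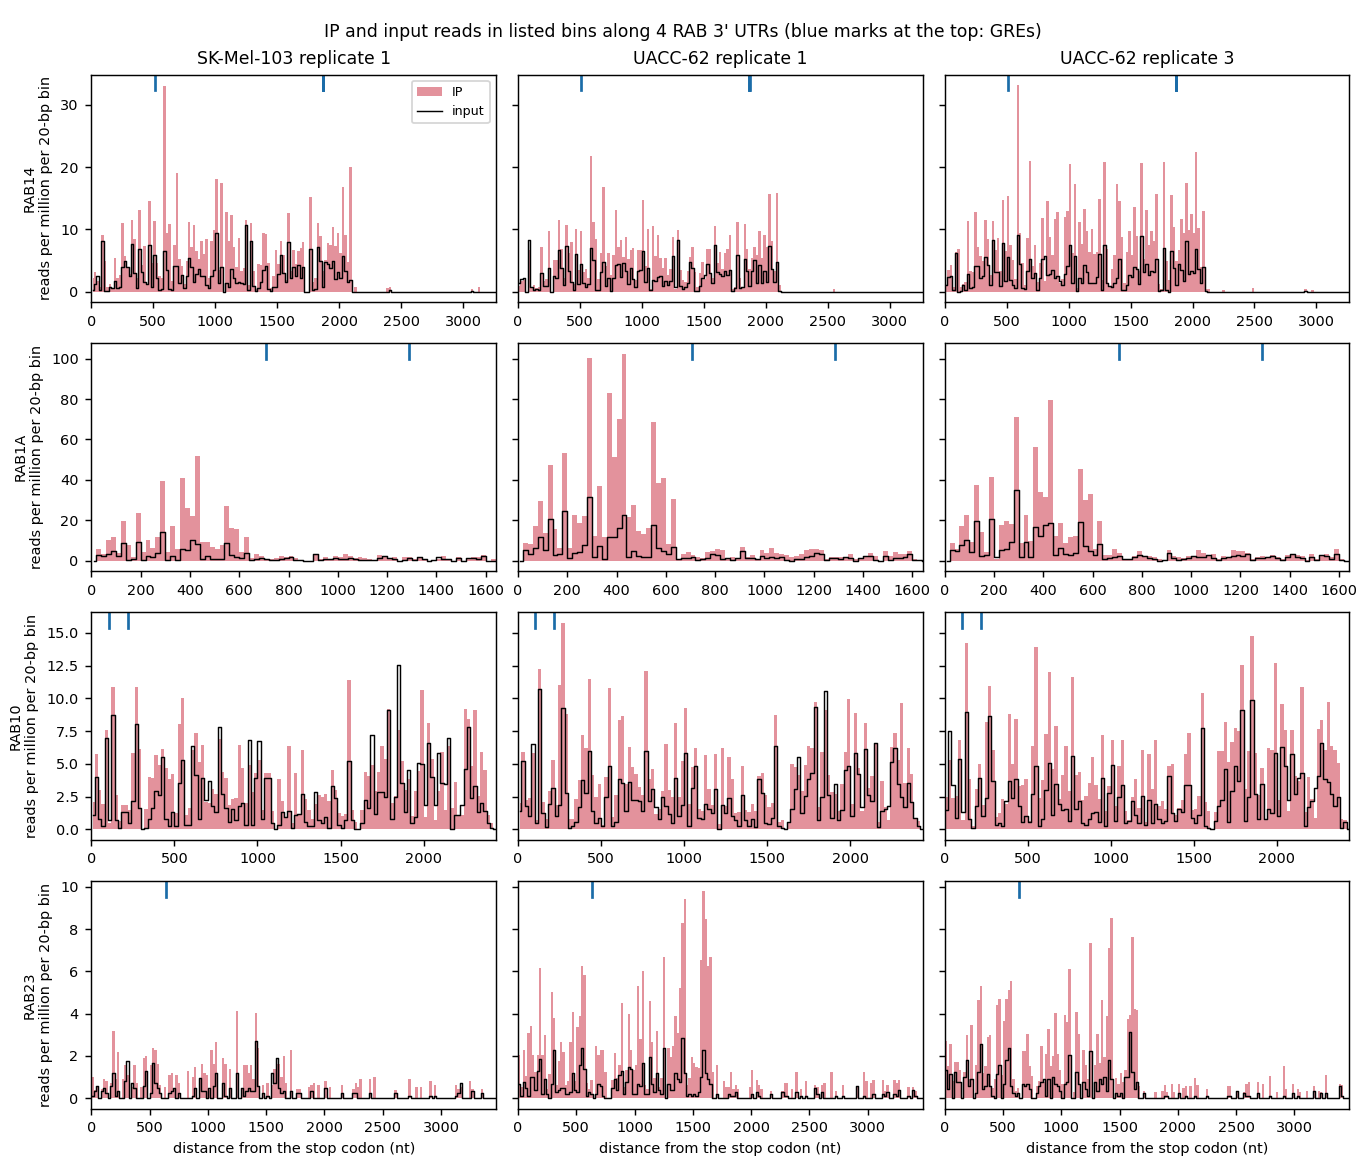
RPM in each listed 20-bp bin (vertical) against distance from the stop codon in nt (horizontal) along the 3′ UTRs of RAB14, RAB1A, RAB10 and RAB23 in the 3 samples, with IP as filled bars, input as a black line and GREs as blue marks at the top. In RAB14 both signals end after the common peak at 2087 nt, in RAB1A both are high in the first part of the UTR, and in RAB10 they run along all 2436 nt. Input is drawn only in bins where the IP passed, so input beyond the last IP bins would not be seen.

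GREs were present in RAB genes with and without a common peak. A GRE was present in the 3′ UTR of 35 of 62 RAB genes (56.5%), against 55.3% of all genes with a 3′ UTR. Of these 35, 8 (22.9%) had a common peak, against 12.1% of all genes with a GRE, and of the 27 RAB genes without a GRE 3 (11.1%) had one, against 4.58%. The 3 RAB genes with a common peak and no GRE were RAB12, RAB2A and RAB5C. In RAB7A the GRE lay only in the UTR of another transcript than the reference one.

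A GRE without mismatch was found in 1 RAB gene (1.61%), against 7.65% of all genes. It was RAB3C, a synaptic vesicle RAB with next to no reads here. With 1 mismatch allowed the RAB genes with both a GRE and a common peak were 2, RAB14 and RAB18. RAB GREs were also less dense than those of other genes, with 0.481 per kb of 3′ UTR in the 11 RAB genes with a common peak, 0.522 in all RAB genes, 1.06 in all genes with a common peak and 0.778 in all genes. RAB3C with 8 GREs and RAB21 and RAB6B with 7 each had the most among the RAB genes, and none of them had a common peak. RAB21, an endosomal RAB with 14616 nt of 3′ UTR, had 1165, 653 and 1499 IP reads over 1165, 1169 and 1300 input reads.

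Bins near a GRE were compared with the other bins of the same RAB gene. Of the common peaks in reference 3′ UTRs, 10 lay within 25 nt of a GRE, where 27 bins were listed, and 207 further away, where 992 were listed. Near a GRE and away from it, common peaks were 6 of 6 and 66 of 110 bins in RAB14 and 3 of 6 and 59 of 114 in RAB10. They were 1 of 6 and 15 of 115 in RAB18 and 0 of 4 and 33 of 77 in RAB1A. In RAB10 the bins near a GRE had a log2 IP over input of 0.46, 0.64 and 0.67, and the other bins 0.68, 0.80 and 1.0. Near bins minus other bins was -0.36, -0.00 and -0.08 in RAB14 and 0.79, 1.2 and -0.09 in RAB18. Of these 3 genes, the ones with 5 or more bins on each side, RAB10 was lower near a GRE in all 3 samples and none was higher in all 3, while RAB14 showed no difference in UACC-62 replicate 1.

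Shorter UGU letters were more frequent. A UGU, the core shared by both GRE consensus sequences, was present in 108 of the 217 common 3′ UTR peaks of RAB genes (49.8%, Wilson 95% interval 43.2 to 56.4). Other listed 3′ UTR bins of RAB genes held it in 858 of 2580 cases (33.3%, 31.5 to 35.1), and common peaks of other genes in 40.4% (39.8 to 41.1) of 24271. RAB1A had UGU in 19 of 33 common bins (57.6%), RAB14 in 36 of 72 (50%) and RAB10 in 25 of 62 (40.3%). These 3 genes gave most of the 217 common bins, while the 2580 other bins were pooled over all RAB genes with listed 3′ UTR bins. The UGU share was not compared within a gene, so a difference between bins and one between genes cannot be told apart. A whole GRE fell in 2 of the 217 bins (0.92%), both of them in RAB14. It fell in 13 of the 2580 other listed RAB bins (0.50%) and in 1.95% of the common peaks of other genes. A match of letters is a description of the bin and not a mapped site.

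**Figure D5:**
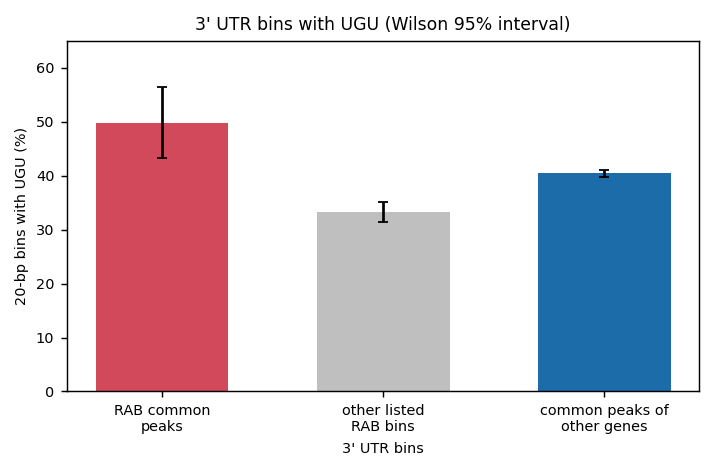
Share of 20-bp 3′ UTR bins that hold UGU (vertical, percent, from 0) in common peaks of RAB genes, in other listed bins of RAB genes and in common peaks of other genes, with Wilson 95% intervals over bins. The values are 49.8%, 33.3% and 40.4%, and the sets differ in the genes that their bins come from.

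RAB mRNAs with a common peak had longer and more AU-rich 3′ UTRs, by their medians, than those with enough reads and no common peak. Median lengths were 3305 nt in the 11 RAB genes with a common peak and 1933 nt in the 21 others. Over all genes they were 2208.5 nt with a common peak, and 1957.5 nt with enough reads and no common peak. Median AU content was 64.3% (from 46.0% in RAB5C to 68.5% in RAB12), 59.6%, 61.2% and 59.3% in the same sets. Both were taken over the UTRs of all coding transcripts of a gene joined, which lengthens some genes, and medians over reference transcripts were not taken. RAB2A has 3305 nt joined and 2878 nt in the reference transcript, and RAB7A 3581 nt and 1379 nt. RAB21, RAB30 and RAB22A, with 14616, 9706 and 7807 nt joined, had no common peak. RAB1B and RAB8A, relatives of RAB1A and RAB10 without a common peak, had an AU content of 38.2% and 47.1% against 66.1% and 65.4%, while RAB5A, with no peak, had 66.1% and RAB5C, with 1 common peak, 46.0%. The paralogs thus differed in both directions.

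The genes that act on RAB proteins were described from 5 lists with 131 genes. A common peak was found in 7 of them (5.34%), beside 8.69% of all genes. Bins in all 3 lists were found in 110 of the 131, and in 50.6% of all genes. The 7 were all among these 110, while 17.2% of all genes with bins in all 3 lists had a common peak. Of 85 partner genes with enough reads, 28 (32.9%, against 25.5% of all genes) were above 0 in log2 IP over input in all 3 samples and 35 (41.2%, against 54.9%) below. GDI2, a GDP dissociation inhibitor, had 2046, 613 and 998 IP reads over 5449, 3546 and 3261 input reads, with ratios of -1.79, -2.69 and -2.40. It lay below 0 in every sample, with 29, 0 and 2 peaks and no common one. The Rab escort proteins CHM and CHML, which present RABs for prenylation, had ratios of 0.40, -0.89 and -0.79 and of -1.26, -1.87 and -1.57.

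Of 29 GEFs only DENND6A, an exchange factor for RAB14, had common peaks, 27 in number. DENND6A had 3142, 3476 and 5210 IP reads over 702, 580 and 467 input reads, for ratios of 1.79, 2.42 and 2.78 (UACC-62 2.60 ± 0.25). Both RAB14 and its exchange factor were thus above 0 in all 3 samples. Of 30 GAPs, EVI5, linked to RAB11, and TBC1D13, linked to RAB35, had 1 common peak each, with ratios of 1.32, 1.75 and 1.48 and of 1.94, 2.36 and 2.07. RAB35 itself was at -1.11, -0.98 and -1.16, so TBC1D13 and RAB35 lay on opposite sides of 0. RAB11A was at 0.037, -0.79 and -0.43, and RAB11B at 0.21, 0.94 and 1.03. Of 39 effectors, VPS35, a retromer subunit, had 23 common peaks and ratios of 0.45, 0.65 and 0.49.

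Of 25 partners of melanosome RABs, BLOC1S6 and AP3B1, subunits of sorting complexes for lysosome-related organelles, had a common peak. BLOC1S6 had 27, 6 and 52 peaks, 6 of them common, at ratios of 0.41, 0.02 and 0.67, and AP3B1 had 1 common peak at -0.41, -0.62 and -0.23. MLPH, the melanophilin that links RAB27A to myosin Va, had no peak and ratios of -0.42, -1.10 and -0.80. MYO5A, the myosin, had 1000, 4250 and 5200 IP reads over 910, 8072 and 6166 input reads, with ratios of -0.24, -1.08 and -0.94. It had 15 and 18 peaks in the UACC-62 replicates and none in SK-Mel-103, and no common peak. The genes of the RAB27A, melanophilin and myosin Va complex were all below 0 in all 3 samples, as were 54.9% of all genes with enough reads. Relative to the median gene RAB27A was at 0.09, 0.01 and -0.47, so it was not below that gene in every sample. Of the 15 melanosome partners with enough reads, 8 were below 0 in all 3 and 4 above. The highest ratios were those of SYTL4, a RAB27 effector of granule exocytosis, at 2.83, 2.78 and 2.29 from 238, 251 and 174 IP reads, with no peak in any sample.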

How the data were processed

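RIP-Seq lists of 3 IP samples were analysed, and the 3 inputs were available as a column of those lists. The authors aligned reads with TopHat (GRCh37, first-strand setting, up to 20 hits per read) and called 20-bp bins with Piranha (1.2.1, zero-truncated Poisson regression). Tool versions differ between the methods and the submitters' processing notes, which list TopHat2 2.0.4, Bowtie 0.12.7 and SAMtools 0.1.16. Whole IP read counts per bin were deposited by the authors without normalization, in passing bins only (4 or more IP reads). Each bin's p-value is as deposited (at most 0.0499). The methods state an FDR of 0.05 for Piranha, while the lists do not name the column as corrected. The authors also left the model's covariate, a ratio of input reads to a fixed number, as the final column, and dividing it by its smallest step gave the input reads (100% whole within 0.05, with 0.01 as no input).

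The transcript strand was taken as the reverse of the listed strand. Bins were placed by their centre in exons of protein-coding genes (GENCODE 44 mapped to GRCh37), as 3′ UTR, coding or 5′ UTR in that order. Peaks had more than 30 IP reads, as in the study's methods. Log2 IP over input used 1 added read and list totals, and was given for genes with 50 or more reads in every list. Positions used the Ensembl canonical transcript. UTR lengths, AU content, GRE counts and RPKM used the joined exons of all coding transcripts of a gene. GREs were 11-nt stretches within 2 mismatches, merged where they overlap. A bin was called unique when its central 31 bases occur once in the genome. Replicates were not pooled, and no test was run. Every RAB gene with a common peak is named, with full values for melanosome genes, the 6 highest and 4 lowest ratios among those, paralogs of genes with a common peak and genes with peaks in 1 line, and partners are named by a common peak or as GDI2, CHM, CHML, MLPH and MYO5A, with some genes not reported here. RAB30, RAB6A, RAB31, RAB21, RAB6B, RAB3C and other genes outside this rule, and SYTL4, were named after their values were seen. The members and lists were chosen with earlier results of these data known. Sequences come from the GRCh37 genome. Scripts were tested on simulated data. Alternatives covered the read filter, p-value threshold, strand, region order, shared and repeated bins, GRE mismatches, normalization and each UACC-62 replicate. Software was Python 3.11.15 with pysam 0.24.0, scipy 1.17.1, pandas 2.3.3, matplotlib 3.10.9 and numpy 2.4.6.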

Additional observations from a re-analysis of the deposited data

Results flagged for a closer look

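In 4 RAB genes log2 IP over input was above 0 in SK-Mel-103 and below 0 in both UACC-62 replicates. The difference between the lines was not tested, since SK-Mel-103 had 1 sample. RAB2A had 0.50 in SK-Mel-103 and -0.76 and -0.14 in UACC-62. RAB11A had 0.037 against -0.79 and -0.43, and RAB12 had 0.072 against -0.57 and -0.16. RAB6C, an intronless relative of RAB6A, had 0.032 against -1.08 and -1.16, and 9 of its 10 bins were not unique in the genome. The median gene also differed between the samples, at -0.28, -0.71 and -0.49. Relative to it the values were 0.77, -0.04 and 0.36 in RAB2A, 0.31, -0.08 and 0.06 in RAB11A, 0.35, 0.15 and 0.34 in RAB12, and 0.31, -0.36 and -0.67 in RAB6C. On that scale RAB12 was above 0 in all 3 samples, and RAB6C alone stayed below 0 in both UACC-62 replicates.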

How the results depend on the processing

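The 11 RAB genes with a common peak were the same 11 with a p-value under 0.01, with a peak in any bin of each sample, in bins of 1 gene, in unique bins, with introns added, and with either UACC-62 replicate left out (11 to 11). Their 17.7% stood beside 8.69% of all genes in the main setting, 11.1% without replicate 1 and 9.13% without replicate 3. Without the read filter they were 34 (54.8%, against 40% of all genes), with more than 100 IP reads 3 (4.84%, against 2.67%), and on the listed strand 0. Partner genes numbered 7 (5.34%, against 8.69% of all genes), then 89 without the filter (67.9%, against 40%, so that the order turned), 2 with more than 100 reads (1.53%, against 2.67%), and 7 to 12 with a UACC-62 replicate left out, 12 being without replicate 1 (9.16%, against 11.1%). Genes with peaks in SK-Mel-103 only were 3 (4.84%, against 2.98% of all genes), and 1 without the filter (RAB39B) or with more than 100 reads (RAB27B), and 3 to 4 with a replicate left out. Genes with peaks in UACC-62 only were 2 (3.23%, against 2.43%), then 1 without the filter (RAB17), 2 with more than 100 reads (RAB23 and RAB5C), and 2 to 8 with a replicate left out (3.23% to 12.9%, against 2.85% to 5.16%). RAB genes with a common peak and a GRE were 8, then 2 with 1 mismatch, 0 with none, 22 without the filter and 3 with more than 100 reads. The 8 were 22.9% of RAB genes with a GRE, against 12.1% of all genes with one. Shares over all genes were not taken for the other GRE settings or for the single-line counts under other read filters. They were also not taken for SK-Mel-103 with a replicate left out. The 3′ UTR share of 94.8% became 86.6% without the filter and 97.8% with more than 100 reads, and 94.5% to 94.9% with a replicate left out. Genes above 0 in all 3 samples were 6 of 11 in every alternative except division by the median ratio of all genes, which gave 7, as the lowest RAB12 value turned to 0.15. Of 110 recomputed lowest ratios of the 11 genes, 80 moved by less than 1 SD of the UACC-62 replicates, 27 rose by more, 2 fell by more and 1 turned sign. A lowest value can only rise or stay when a replicate is left out, and both changes of normalization raised all 11 genes. The excess of rises is therefore largely built in. No paired analysis was possible because input is known only in bins chosen for their IP reads, so that a test of IP against input over the pairs would also test that choice. Each ratio is already taken within 1 pair. The counts limit RAB27A, RAB17 and the RAB genes with no listed bin, whose listed IP reads were too few for a common peak in some or all samples.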
